A study of Mus musculus with 12 samples.

Results

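The genes described here are 48 genes of mitosis: motor kinesins of the spindle, proteins of the centromere and kinetochore, the spindle checkpoint, the Polo and Aurora kinases, partners of the anaphase promoting complex, proteins of the spindle midzone, condensin and other chromosome proteins, and Cdk1 with its cyclins. They were picked by gene symbol from a table of 39179 rows, in which each of the 48 symbols stood in 1 row. All 48 were among the 13121 genes with enough counts to be tested, and the lowest count of any member in any library was 21.

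The libraries came from RAW 264.7, a mouse macrophage cell line of BALB/c origin. Cells were made stable under puromycin after nucleofection with sh-PHLPP1, a short hairpin RNA aimed at the phosphatase gene Phlpp1, or with sh-Luc, the control hairpin. The groups were sh-PHLPP1 cells given oxidised low-density lipoprotein (OxLDL, 100 µg/ml for 24 hours), sh-Luc cells given the same OxLDL, untreated sh-PHLPP1 cells and untreated sh-Luc cells, with 3 libraries in each. Replicates 1, 2 and 3 were cells at passages 9, 10 and 11, so p-values measure the spread between passages of 1 line each. Whether a line was 1 clone or a pool of cells is not stated in the labels.

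Totals ran between 16020186 and 27422114 counts per library. Levels are given in CPM, a library's counts scaled to a common total after adjustment by TMM (trimmed mean of M values) factors. Phlpp1 itself had 8.65, 8.35 and 7.40 CPM in sh-PHLPP1 OxLDL libraries, 11.4, 13.5 and 11.4 CPM in sh-Luc OxLDL libraries, 17.3, 14.6 and 14.0 CPM in untreated sh-PHLPP1 libraries and 12.4, 14.4 and 13.3 CPM in untreated sh-Luc libraries. After OxLDL, sh-PHLPP1-labelled libraries had less of it than sh-Luc libraries (log2 fold change ± SE, here and below, -0.57 ± 0.14, edgeR adjusted p = 0.00385) but the difference between the untreated lines was not called (0.19 ± 0.13, edgeR adjusted p = 0.279), so sh-PHLPP1 is used below only as the label of those libraries. Of 10 macrophage markers, 9 were tested, and their summed level was 16236 to 18720 CPM in sh-PHLPP1 OxLDL libraries, 18588 to 20552 CPM in sh-Luc OxLDL libraries, 11219 to 13112 CPM in untreated sh-PHLPP1 libraries and 16384 to 19637 CPM in untreated sh-Luc libraries. Mertk had 3 counts in all. Of 15 markers of fibroblasts, epithelium, endothelium, lymphocytes and erythroid cells, 3 were tested, and Epcam, Cdh1, Krt18, Cd3e and Hbb-bs had no count in any library. The 15 together summed to 3.58 to 6.14 CPM in sh-PHLPP1 OxLDL libraries, 2.46 to 4.01 CPM in sh-Luc OxLDL libraries, 1.73 to 2.85 CPM in untreated sh-PHLPP1 libraries and 2.01 to 3.29 CPM in untreated sh-Luc libraries. Their part in the results was not tested.

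Mitosis separates the copied chromosomes. Cdk1 bound to cyclin A or cyclin B starts it, condensin and topoisomerase II shape the chromosomes, kinetochores built on the centromere bind spindle microtubules, and the checkpoint holds back the anaphase promoting complex until every kinetochore is attached. The complex, switched on by Cdc20, then marks cyclin B and securin for destruction, and kinesins, Aurora B and midzone proteins complete the division. Transcripts of these genes peak in G2 and M in cycling cells, so in a mixed culture their level is widely used as a measure of how many cells are dividing. In bulk RNA, fewer dividing cells and less of each transcript per dividing cell cannot be told apart.

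Many promoters of this class are known to hold a CCAAT box, bound by NF-Y, and a cell cycle genes homology region (CHR), bound by the DREAM and MuvB complexes. The start-site windows of 5 regulators are shown as examples. Ccna2 was also to be shown but had no window. Each runs 5′ to 3′ on the gene's strand over 300 bases, 250 before and 50 after the annotated start, from RefSeq on GRCm38.p6, the build named in the submitters' processing notes. Capitals mark CCAAT (or ATTGG, the same box on the other strand) and the CHR letters TTTGAA or TTCGAA, searched on both strands. Positions are chr13:100786437-100786736 (minus strand) for Ccnb1, chr10:69352863-69353162 (minus) for Cdk1, chr7:122159185-122159484 (plus) for Plk1, chr4:118437294-118437593 (minus) for Cdc20 and chr2:172370521-172370820 (minus) for Aurka.
Ccnb1: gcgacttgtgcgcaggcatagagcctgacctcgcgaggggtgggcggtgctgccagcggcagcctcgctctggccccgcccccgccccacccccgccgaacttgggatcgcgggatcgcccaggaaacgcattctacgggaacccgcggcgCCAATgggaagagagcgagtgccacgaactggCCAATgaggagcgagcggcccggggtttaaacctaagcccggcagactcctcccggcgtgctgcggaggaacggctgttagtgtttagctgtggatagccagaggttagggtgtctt
Cdk1: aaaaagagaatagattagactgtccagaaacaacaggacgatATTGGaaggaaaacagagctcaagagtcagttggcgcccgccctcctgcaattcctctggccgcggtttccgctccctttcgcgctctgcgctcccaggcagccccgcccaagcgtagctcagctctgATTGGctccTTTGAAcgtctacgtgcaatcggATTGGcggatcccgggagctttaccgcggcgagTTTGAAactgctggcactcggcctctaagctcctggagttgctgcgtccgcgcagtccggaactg
Plk1: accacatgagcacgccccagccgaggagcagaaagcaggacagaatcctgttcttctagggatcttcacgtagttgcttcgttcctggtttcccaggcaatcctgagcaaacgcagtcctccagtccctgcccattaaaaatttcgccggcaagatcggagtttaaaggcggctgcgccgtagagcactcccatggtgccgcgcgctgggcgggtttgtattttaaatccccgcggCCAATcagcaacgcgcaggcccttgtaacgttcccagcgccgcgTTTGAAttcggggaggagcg
Cdc20: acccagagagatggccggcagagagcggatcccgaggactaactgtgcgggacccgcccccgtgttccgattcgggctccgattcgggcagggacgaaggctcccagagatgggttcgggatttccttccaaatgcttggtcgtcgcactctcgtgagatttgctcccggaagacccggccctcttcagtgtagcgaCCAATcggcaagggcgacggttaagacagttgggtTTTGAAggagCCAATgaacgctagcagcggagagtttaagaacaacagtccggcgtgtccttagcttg
Aurka: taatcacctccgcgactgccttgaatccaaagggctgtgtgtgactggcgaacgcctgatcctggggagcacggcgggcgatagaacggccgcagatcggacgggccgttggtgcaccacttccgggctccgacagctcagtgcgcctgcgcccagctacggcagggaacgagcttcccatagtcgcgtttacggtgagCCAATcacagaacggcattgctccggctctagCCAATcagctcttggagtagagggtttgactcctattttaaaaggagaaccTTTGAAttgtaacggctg

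In the Cdk1 window, 3 CCAAT boxes and 2 CHR words were found, the nearest CHR word beginning 15 bases before the start. The Cdc20 window held 2 CCAAT boxes and 1 CHR word, which began 18 bases before the start. In Plk1 and Aurka the CHR word lay 30 and 32 bases after the annotated start, with 1 and 2 CCAAT boxes before it. The Ccnb1 window held 2 CCAAT boxes and neither CHR word. Over all members, 41 of 48 had a window. Of the 41, 32 (78.0%) held a CHR word, against 21.7% of the 27025 genes with a window. Those 27025, called all genes in this paragraph, were not limited to the 13121 genes tested here, unlike the shares given below. A CCAAT box stood in 29 of the 41 (70.7%), against 41.1% of all genes, and both words together stood in 27 (65.9%), against 8.61%. The E2F words TTTCGCGC and TTTGGCGC, neither of which contains another word searched, were in 4 of the 41 (9.76%), against 0.929% of all genes. Such matches are a description of letters in a window and no test was made.

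The mitosis genes as a whole were lowest in the sh-PHLPP1 OxLDL libraries. They made up 0.0588%, 0.0682% and 0.0615% of all counts there, against 0.398%, 0.347% and 0.380% in sh-Luc OxLDL libraries, 0.565%, 0.172% and 0.167% in untreated sh-PHLPP1 libraries and 0.539%, 0.522% and 0.514% in untreated sh-Luc libraries. The first value of the untreated sh-PHLPP1 group belongs to replicate 1, which stood with sh-Luc, while replicates 2 and 3 stood between sh-Luc and the sh-PHLPP1 OxLDL libraries. In 44 of the 48 genes every sh-PHLPP1 OxLDL library was below all of the other 9 libraries, an order that 21.8% of all genes tested showed.

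**Figure D1:**
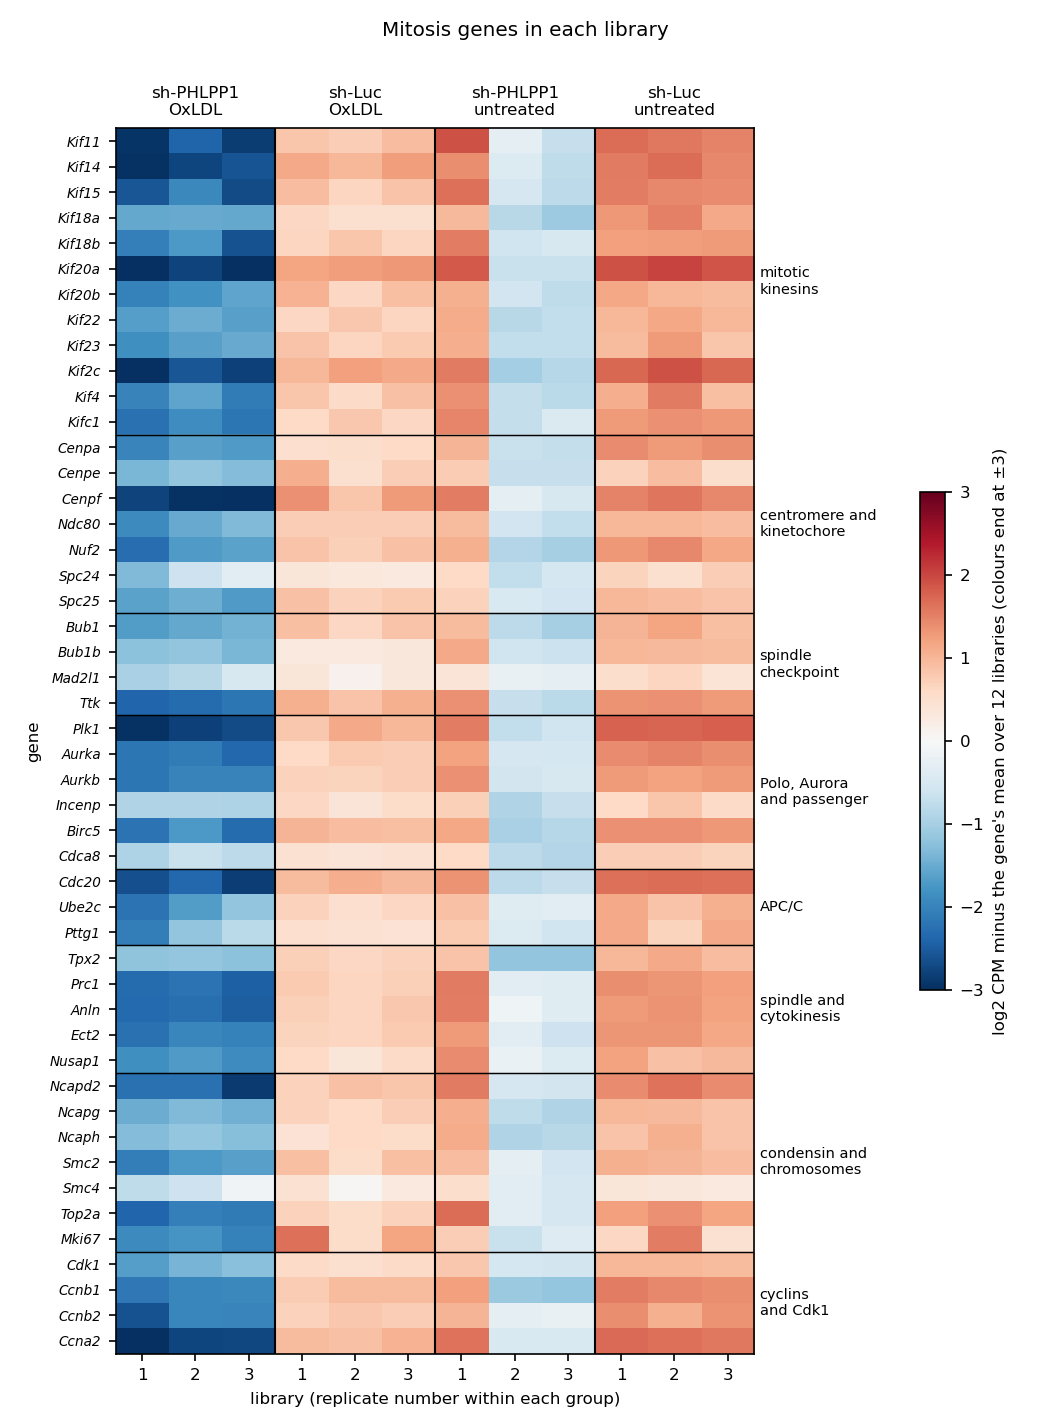
Heat map of 48 mitosis genes (rows, grouped by role) in 12 libraries (columns, 3 replicates in each of 4 groups), coloured by log2 CPM minus the gene's mean over the 12 libraries. The 3 sh-PHLPP1 OxLDL columns are blue throughout except for a few pale cells, untreated sh-PHLPP1 replicates 2 and 3 are mostly pale blue, and untreated sh-PHLPP1 replicate 1 has the red of the sh-Luc columns.

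The untreated sh-PHLPP1 libraries differed among themselves, and several results below rest on that. Replicate 1 was seen to depart in these same genes, so p-values from fits without it give no independent support. Against the range of the 3 untreated sh-Luc libraries, replicate 1 was below in 18 genes, within in 17 and above in 13, with a median log2 difference of -0.01 from their mean. Over all genes tested it was below in 33.2% and above in 30.9%. Replicates 2 and 3 were both below all untreated sh-Luc libraries in 48 of 48 genes, against 33.1% of all genes, with medians of -1.80 and -1.79. They were also both below every sh-Luc OxLDL library in 48 of 48 genes, against 35.2% of all genes. Replicate 1 was higher than the mean of replicates 2 and 3 by 3.72 times in the median gene, between 1.54 times for Mad2l1 and 5.68 times for Kif20a. Across all genes tested, its log2 CPM correlated with replicates 2 and 3 at 0.967 and 0.966, while other pairs within a group reached 0.983 to 0.995. Replicate 1 came from passage 9, but so did the first libraries of the other 3 groups. The part of passage in this was not tested.

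After OxLDL, 48 of 48 mitosis genes were lower in sh-PHLPP1 than in sh-Luc libraries, and none was higher. The median log2 fold change was -2.67, which is 6.34-fold lower, and it ran between -4.55 for Kif20a and -0.74 for Smc4. Over all 13121 genes tested 27.6% were called lower, with a median of 0.01. Groups did not overlap in any of the 48, against 34.6% of all genes. By role, the median ran between -1.96 for the 4 spindle checkpoint genes and -2.91 for Cdk1 and its 3 cyclins. The test was edgeR's quasi-likelihood test on all 12 libraries, with a call at a Benjamini-Hochberg adjusted p under 0.05 over all genes, and the largest adjusted p among the members was 0.0216. In fits that left out 1 library at a time, 46 of the 48 were called every time. The exceptions were Spc24 without sh-PHLPP1 OxLDL replicate 1 (-0.80) and Smc4 without sh-PHLPP1 OxLDL replicate 1 (-0.62) or 2 (-0.67) or sh-Luc OxLDL replicate 1 (-0.66). The authors' deposited table called 48 of 48 lower as well, with a median of -2.66, against 32.3% of the genes it lists. Of the 9 macrophage markers tested, 6 were called higher and 2 lower in this comparison, with a median of 0.53, while 27.6% of all genes were called higher. The 2 that were lower were Csf1r, the receptor for M-CSF (-1.10 ± 0.30, edgeR adjusted p = 0.00802), and Lyz2, the macrophage lysozyme (-0.65 ± 0.11, edgeR adjusted p = 0.000448), which with 2577471 counts over the 12 libraries made up most of the marker sum. The part of these differences in the results was not tested.

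Within the sh-PHLPP1 line, 44 of 48 genes were lower with OxLDL than without, none was higher, and the median log2 fold change was -2.05, or 4.14-fold lower. Over all genes 28.4% were called lower. The 4 that did not pass were Smc4, Cdca8, Spc24 and Tpx2, and the same 4 were the ones whose groups overlapped (44 of 48 apart, against 30.5% of all genes). How large this difference is depended on which untreated library it was measured from. The mean of the OxLDL libraries lay 8.37-fold below untreated replicate 1 in the median gene, 2.37-fold below replicate 2 and 2.33-fold below replicate 3. All 3 OxLDL libraries were below replicate 1 in 48 of 48 genes (41.9% of all genes), below replicate 2 in 44 (42.0% of all genes) and below replicate 3 in 44 (41.6% of all genes). With replicate 1 left out, 43 of 48 were called, against 29.9% of all genes, and the median was -1.23. Of the macrophage markers, 5 of 9 were called higher with OxLDL in this line and Csf1r lower, with a median of 0.48, while 26.2% of all genes were called higher.

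Between the untreated lines, 11 of 48 genes were lower in sh-PHLPP1 libraries, none was higher, and 12.2% of all genes were called lower. The 11 were Kif18a, Cenpa, Nuf2, Spc25, Mad2l1, Plk1, Aurka, Cdca8, Cdc20, Cdk1 and Ccnb2. All 48 log2 fold changes were negative, with a median of -0.91, while the median over all genes tested was 0.03. The share of all genes with a negative value was not counted. Groups did not overlap in 18 of 48, against 18.5% of all genes. The number of calls turned on single libraries: it was 48 of 48 without sh-PHLPP1 replicate 1 (median -1.79, against 23.0% of all genes). It was 0 without sh-PHLPP1 replicate 2 (-0.65, against 4.87%) or replicate 3 (-0.62, against 4.99%). It was also 0, 3 and 2 without sh-Luc untreated replicates 1, 2 and 3, against 8.28%, 7.41% and 8.83% of all genes. When any 1 of the OxLDL libraries was left out it was 6 to 8, against 9.71% to 13.6%. The replicate number as a block gave 19, against 11.8% of all genes, and DESeq2 gave 21, against 16.7%. The authors' deposited table called 4 of 48 lower, with a median of -0.92, against 9.70% of the genes it lists.

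In sh-Luc cells, no mitosis gene was called with OxLDL by edgeR (0 of 48) or by DESeq2 (0 of 48), while 3.09% of all genes were called lower. The log2 fold change was negative in 46 of 48 and ran between -0.83 for Cenpa and 0.25 for Mki67. Its median was -0.47, or 1.38-fold lower, while the median over all genes tested was -0.004. Groups were apart with OxLDL lower in 41 of 48 genes, against 21.4% of all genes, and 1 gene had an unadjusted edgeR p under 0.05. The estimate of the spread is shared by the 4 groups, and untreated sh-PHLPP1 replicate 1, which takes no part in this comparison, enters it. Without that library the median was -0.46 and 32 of 48 were called lower, against 9.86% of all genes. With only the 6 sh-Luc libraries in the fit, 36 were called lower, against 11.0% of all genes, and the authors' deposited table called 36 of 48 lower (median -0.46, against 12.3% of the genes it lists).

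Both comparisons of OxLDL were set against each other by the interaction of line and OxLDL. It was called in 26 of 48 genes, all negative, with a median of -1.78, while 13.6% of all genes had a called negative interaction. That is, the log2 fold change with OxLDL was lower in sh-PHLPP1 than in sh-Luc by 1.78 in the median gene. Without untreated sh-PHLPP1 replicate 1 the interaction was called in 32 genes, against 19.4% of all genes, but its median was -0.93 and 7 genes turned positive, none of them called. The count was 37 without untreated sh-PHLPP1 replicate 2 or 3, against 12.5% and 12.9% of all genes. It was 12 without sh-PHLPP1 OxLDL replicate 3 (9.8% of all genes) and 17 without sh-Luc OxLDL replicate 3 (9.14%). Without sh-PHLPP1 OxLDL replicate 1 or sh-Luc untreated replicate 3 it was 16, against 12.3% and 9.75%. For the comparison between lines after OxLDL, leaving out untreated sh-PHLPP1 replicate 1 gave 48 calls, against 31.3% of all genes.

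**Figure D2:**
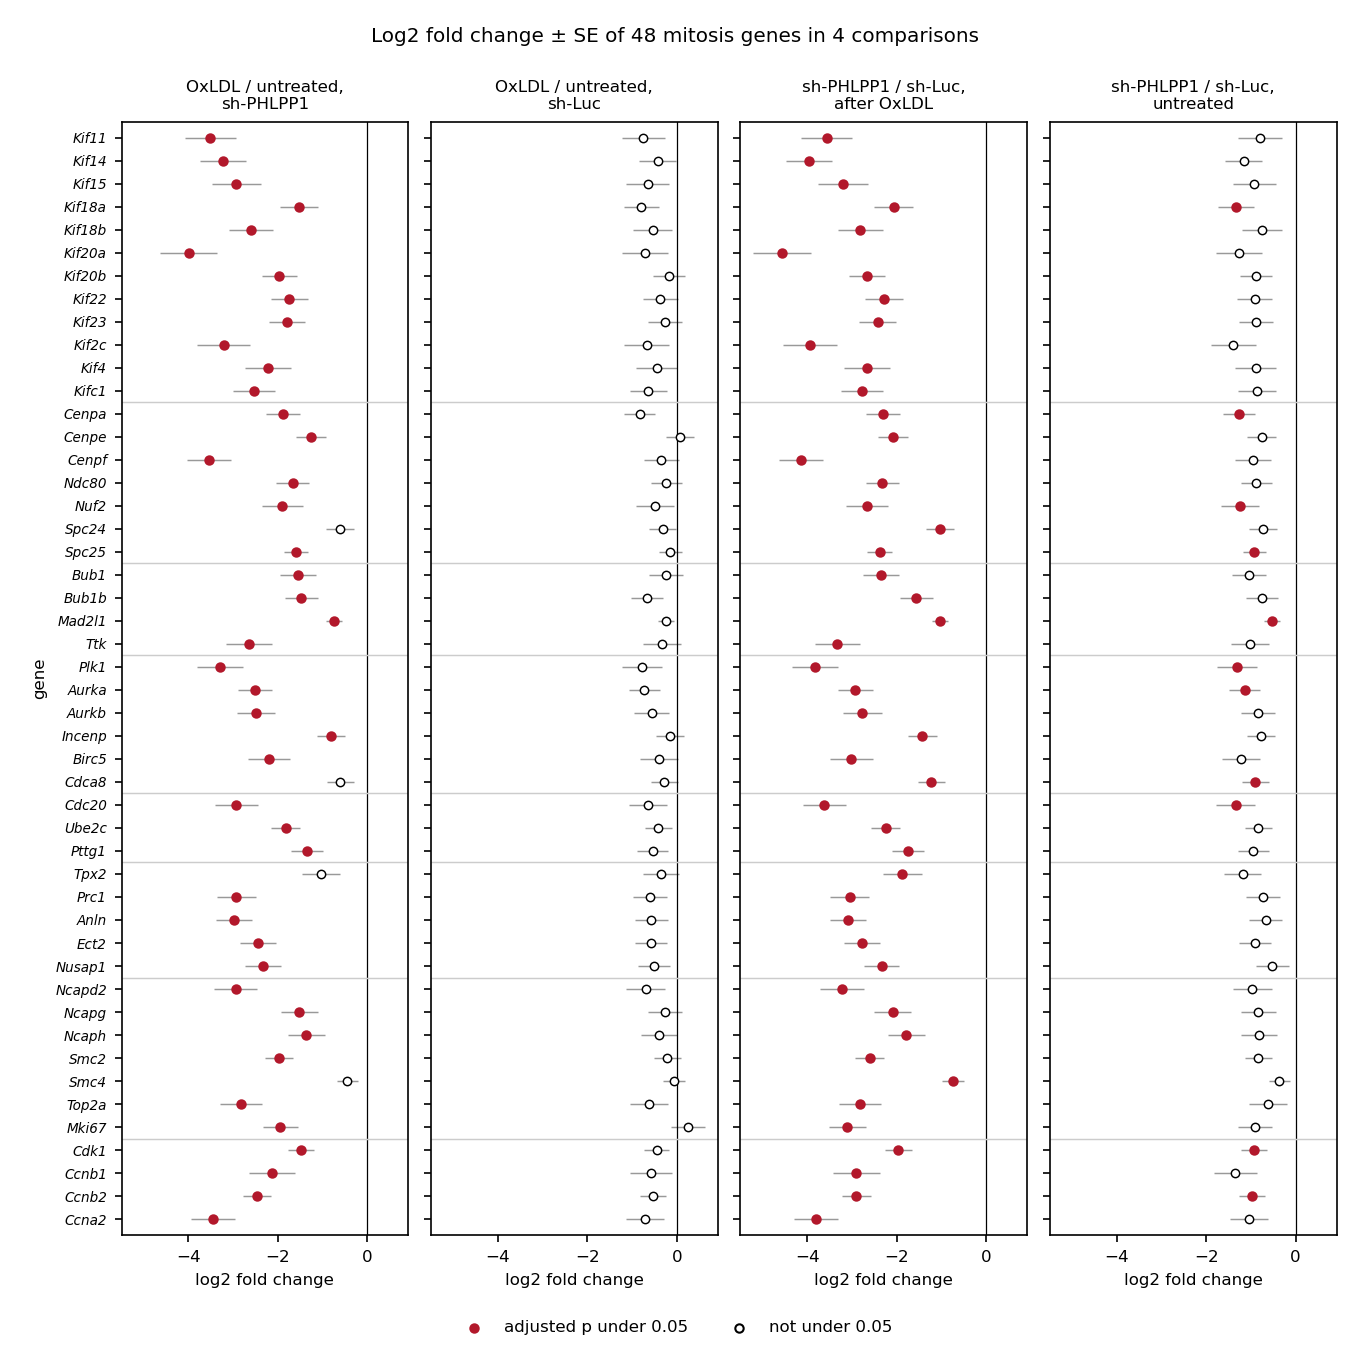
Log2 fold change (points) ± SE (lines) of each of the 48 genes in 4 comparisons, with filled points where the edgeR adjusted p was under 0.05. Filled points number 44, 0, 48 and 11 from left to right, and the third panel lies farthest below 0.

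Cdk1 is the kinase that drives entry into mitosis, and cyclins B1, B2 and A2 (Ccnb1, Ccnb2, Ccna2) are its activating subunits. Cdk1 had 19.6, 23.7 and 26.1 CPM in sh-PHLPP1 OxLDL libraries, 92.1, 86.1 and 92 CPM in sh-Luc OxLDL libraries, 108, 43.2 and 42.0 CPM in untreated sh-PHLPP1 libraries and 124, 123 and 120.5 CPM in untreated sh-Luc libraries. Ccnb1 had 9.39, 10.7 and 10.8 CPM in sh-PHLPP1 OxLDL libraries, 70.8, 80.8 and 80.8 CPM in sh-Luc OxLDL libraries, 97.6, 19.2 and 18.6 CPM in untreated sh-PHLPP1 libraries and 121, 114 and 109.6 CPM in untreated sh-Luc libraries. In both genes the sh-PHLPP1 OxLDL libraries were lowest, untreated sh-PHLPP1 replicates 2 and 3 came next, and all 3 sh-Luc OxLDL libraries lay above those and below sh-Luc untreated. Ccnb2 had 7.70, 12.1 and 12.0 CPM in sh-PHLPP1 OxLDL libraries, 76.8, 82.8 and 79.3 CPM in sh-Luc OxLDL libraries, 97.0, 38.6 and 40.5 CPM in untreated sh-PHLPP1 libraries and 125, 99.8 and 122 CPM in untreated sh-Luc libraries. Ccna2 had 5.74, 7.05 and 7.18 CPM in sh-PHLPP1 OxLDL libraries, 92.8, 87.8 and 98.4 CPM in sh-Luc OxLDL libraries, 149.9, 35.1 and 34.8 CPM in untreated sh-PHLPP1 libraries and 157, 152 and 144 CPM in untreated sh-Luc libraries. No sh-PHLPP1 OxLDL library overlapped another group in these 4 genes. After OxLDL, sh-PHLPP1 was lower than sh-Luc by 3.89-fold for Cdk1 (log2 -1.96 ± 0.30, edgeR adjusted p = 0.000210), 7.51-fold for Ccnb1 (-2.91 ± 0.53), 7.50-fold for Ccnb2 (-2.91 ± 0.32) and 14.0-fold for Ccna2 (-3.80 ± 0.50). Ccnb2 had the smallest p of all members there (edgeR adjusted p = 2.44e-05). With OxLDL in the sh-PHLPP1 line Ccna2 was 11.0-fold lower, and 5.28-fold without untreated replicate 1, while Ccnb1 was 4.36-fold lower and 1.84-fold without it. A processed pseudogene, Ccnb1-ps, held 37.8% as many counts as Ccnb1, so reads could have been split between them. The exons of Ccna2 overlap Exosc9 on the other strand, whose counts came to 43.5% of its own, and whether counting used strand is not given in the sources used here.

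**Figure D3:**
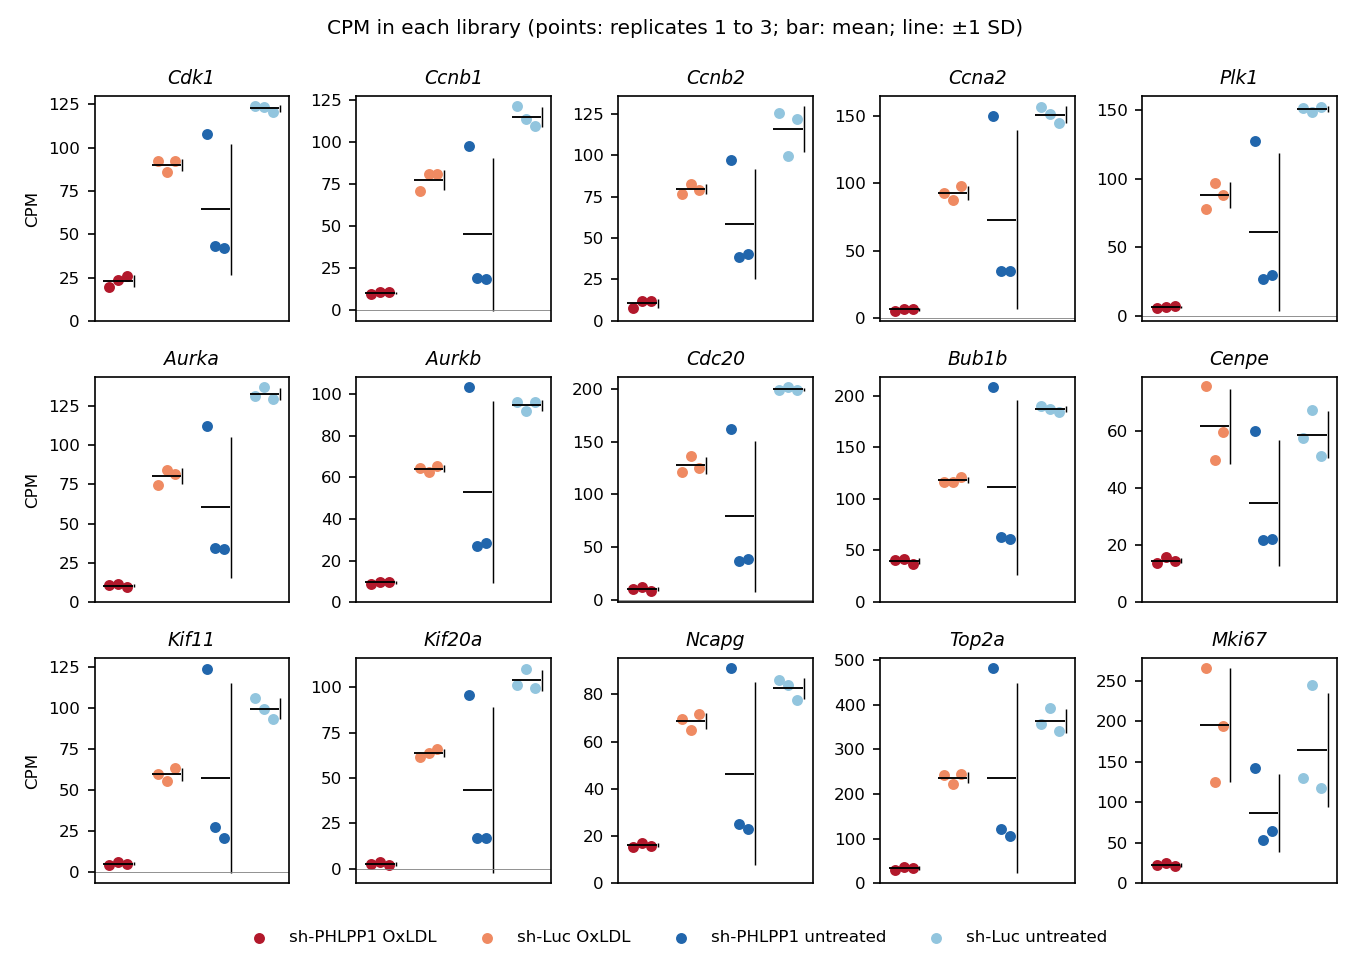
CPM of 15 mitosis genes in each library, with 3 points per group, the mean (bar) and 1 SD (line), and the groups left to right as sh-PHLPP1 OxLDL, sh-Luc OxLDL, sh-PHLPP1 untreated and sh-Luc untreated. In each panel the sh-PHLPP1 OxLDL points are at the bottom and the untreated sh-PHLPP1 group is split, with replicate 1 high and the other two low.

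Plk1, the Polo kinase that matures centrosomes and helps to activate Cdk1, had 5.54, 6.28 and 6.81 CPM in sh-PHLPP1 OxLDL libraries, 78.2, 97.3 and 88.3 CPM in sh-Luc OxLDL libraries, 128, 26.5 and 29.3 CPM in untreated sh-PHLPP1 libraries and 152, 149 and 153 CPM in untreated sh-Luc libraries. Aurka, the Aurora A kinase of the spindle poles, had 10.7, 11.3 and 9.55 CPM in sh-PHLPP1 OxLDL libraries, 74.6, 84.2 and 81.9 CPM in sh-Luc OxLDL libraries, 112, 34.6 and 34.1 CPM in untreated sh-PHLPP1 libraries and 132, 137 and 129.7 CPM in untreated sh-Luc libraries. Aurkb, the Aurora B kinase that corrects wrong attachments as part of the chromosomal passenger complex, had 8.79, 9.77 and 9.77 CPM in sh-PHLPP1 OxLDL libraries, 64.4, 62.7 and 65.7 CPM in sh-Luc OxLDL libraries, 104, 26.9 and 28.3 CPM in untreated sh-PHLPP1 libraries and 96.3, 91.8 and 96.1 CPM in untreated sh-Luc libraries. In all 3 kinases the sh-PHLPP1 OxLDL libraries were lowest, untreated sh-PHLPP1 replicates 2 and 3 came next, and sh-Luc OxLDL libraries lay between those and untreated sh-Luc libraries. After OxLDL, sh-PHLPP1 was lower than sh-Luc by 14.2-fold for Plk1 (-3.82 ± 0.52, edgeR adjusted p = 9.75e-05), 7.60-fold for Aurka (-2.93 ± 0.39) and 6.80-fold for Aurkb (-2.77 ± 0.43). Within the sh-PHLPP1 line the OxLDL libraries were lower by 9.82-fold for Plk1, 5.70-fold for Aurka and 5.59-fold for Aurkb, or 4.52-, 3.28- and 2.94-fold without untreated replicate 1. The partners of Aurora B in the passenger complex follow. Birc5, the survivin subunit, was 8.08-fold lower in sh-PHLPP1 after OxLDL, Incenp, the scaffold, 2.69-fold and Cdca8, the borealin subunit, 2.33-fold. Cdca8 had 36.1, 43.6 and 40.0 CPM in sh-PHLPP1 OxLDL libraries, 94.5, 90.0 and 94.9 CPM in sh-Luc OxLDL libraries, 105, 40.0 and 37.2 CPM in untreated sh-PHLPP1 libraries and 114, 115 and 109.7 CPM in untreated sh-Luc libraries. Its sh-PHLPP1 OxLDL libraries overlapped untreated sh-PHLPP1 replicates 2 and 3, and OxLDL in that line was not called (-0.60 ± 0.30, edgeR adjusted p = 0.109, and 0.04 ± 0.10 without untreated replicate 1). Incenp was called there (-0.81 ± 0.32, edgeR adjusted p = 0.0484) but not without that library (-0.12 ± 0.11, edgeR adjusted p = 0.369).

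Among centromere and kinetochore genes, Cenpf, a large kinetochore protein made in G2, had 3.04, 2.67 and 2.52 CPM in sh-PHLPP1 OxLDL libraries, 55.5, 38.5 and 51.8 CPM in sh-Luc OxLDL libraries, 62.8, 17.7 and 15.4 CPM in untreated sh-PHLPP1 libraries and 60.0, 65.7 and 58.9 CPM in untreated sh-Luc libraries. Cenpe, a kinesin motor of the kinetochore, had 13.7, 15.6 and 14.3 CPM in sh-PHLPP1 OxLDL libraries, 75.5, 49.5 and 59.4 CPM in sh-Luc OxLDL libraries, 59.9, 21.8 and 22.0 CPM in untreated sh-PHLPP1 libraries and 57.4, 67.3 and 51.0 CPM in untreated sh-Luc libraries. Cenpa, the histone variant that marks the centromere, had 10.8, 13.9 and 13.1 CPM in sh-PHLPP1 OxLDL libraries, 61.4, 61.7 and 64.9 CPM in sh-Luc OxLDL libraries, 86.7, 26.9 and 26.0 CPM in untreated sh-PHLPP1 libraries and 115, 105 and 114 CPM in untreated sh-Luc libraries. In all 3 genes every sh-PHLPP1 OxLDL library lay below every other library. Between the lines after OxLDL the fold was 17.7 for Cenpf (-4.14 ± 0.49, edgeR adjusted p = 3.91e-05), 4.23 for Cenpe (-2.08 ± 0.34) and 4.97 for Cenpa (-2.31 ± 0.38), each lower in sh-PHLPP1. Cenpf also had the smallest p of all members in the interaction (-3.19 ± 0.63, edgeR adjusted p = 0.00431, and -2.26 ± 0.22 without untreated sh-PHLPP1 replicate 1). In sh-Luc cells the OxLDL and untreated libraries of Cenpe overlapped (0.07 ± 0.32, edgeR adjusted p = 0.915), whereas those of Cenpa did not, although it was not called either (-0.83 ± 0.35, edgeR adjusted p = 0.162). Without untreated sh-PHLPP1 replicate 1, Cenpa was called there (-0.82 ± 0.09, edgeR adjusted p = 6.41e-05) and Cenpe was not (0.07 ± 0.14, edgeR adjusted p = 0.751).

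The Ndc80 complex is the 4-subunit rod that grips microtubules, and its subunits are Ndc80, Nuf2, Spc24 and Spc25. Spc25 had 8.45, 9.24 and 7.92 CPM in sh-PHLPP1 OxLDL libraries, 47.5, 41.8 and 44.5 CPM in sh-Luc OxLDL libraries, 41.6, 18.8 and 17.4 CPM in untreated sh-PHLPP1 libraries and 52.0, 49.0 and 47.0 CPM in untreated sh-Luc libraries. Spc24 had 9.80, 15.9 and 19.8 CPM in sh-PHLPP1 OxLDL libraries, 31.6, 30.9 and 30.3 CPM in sh-Luc OxLDL libraries, 37.5, 14.8 and 17.1 CPM in untreated sh-PHLPP1 libraries and 39.4, 34.6 and 41.1 CPM in untreated sh-Luc libraries. In Spc25 the sh-PHLPP1 OxLDL libraries stood apart below all others, while in Spc24 sh-PHLPP1 OxLDL replicates 2 and 3 lay above the lowest untreated sh-PHLPP1 library. After OxLDL the fold between sh-PHLPP1 and sh-Luc was 6.32 for Nuf2 (-2.66 ± 0.46), 5.21 for Spc25 (-2.38 ± 0.28, edgeR adjusted p = 3.30e-05), 4.99 for Ndc80 (-2.32 ± 0.37) and 2.04 for Spc24 (-1.03 ± 0.32, edgeR adjusted p = 0.0151), all lower in sh-PHLPP1. Differences between these folds were not tested. Spc25 had the smallest p of all members between the untreated lines (-0.93 ± 0.26, edgeR adjusted p = 0.0205, and -1.45 ± 0.11 without sh-PHLPP1 replicate 1).

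Of the spindle checkpoint genes, Bub1b, the BubR1 subunit of the complex that blocks Cdc20, had 40.7, 41.9 and 36.9 CPM in sh-PHLPP1 OxLDL libraries, 116, 116 and 121 CPM in sh-Luc OxLDL libraries, 209, 63.3 and 61.3 CPM in untreated sh-PHLPP1 libraries and 189, 187 and 184 CPM in untreated sh-Luc libraries. Bub1b was 2.96-fold lower in sh-PHLPP1 than in sh-Luc after OxLDL (-1.56 ± 0.37, edgeR adjusted p = 0.00341). Within sh-PHLPP1 the OxLDL libraries were 2.78-fold lower, or 1.57-fold without untreated replicate 1, and in sh-Luc they were 1.59-fold lower and not called (edgeR adjusted p = 0.263). Without untreated sh-PHLPP1 replicate 1 this difference in sh-Luc was called (-0.66 ± 0.08, edgeR adjusted p = 0.000101). Ttk, the Mps1 kinase that starts checkpoint signalling, showed the largest fold of the 4 (10.0, log2 -3.33 ± 0.51), and Bub1, the kinase that recruits the other proteins, stood at 5.11-fold (-2.35 ± 0.41). Mad2l1, the Mad2 protein that binds Cdc20, was 2.05-fold lower (-1.03 ± 0.18) and differed least.

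Cdc20, the activator of the anaphase promoting complex in mitosis, had 10.1, 12.3 and 8.81 CPM in sh-PHLPP1 OxLDL libraries, 122, 136 and 125 CPM in sh-Luc OxLDL libraries, 162, 36.6 and 39.1 CPM in untreated sh-PHLPP1 libraries and 199, 202 and 199.6 CPM in untreated sh-Luc libraries. It was 12.3-fold lower in sh-PHLPP1 after OxLDL (-3.61 ± 0.49, edgeR adjusted p = 9.09e-05). With OxLDL in the sh-PHLPP1 line it was 7.59-fold lower, or 3.65-fold without untreated replicate 1. Ube2c, the ubiquitin-conjugating enzyme that works with the complex, and Pttg1, the securin that the complex destroys, were 4.75-fold (-2.25 ± 0.32) and 3.34-fold (-1.74 ± 0.36) lower in sh-PHLPP1 after OxLDL. In both of these the sh-PHLPP1 OxLDL libraries spread more widely, at 13.1, 19.3 and 26.9 CPM for Ube2c, against 98.9, 87.5 and 95.2 CPM in sh-Luc OxLDL libraries, and at 6.35, 11.7 and 15.2 CPM for Pttg1, against 38.1, 37.0 and 36.2 CPM in sh-Luc OxLDL libraries. The groups still did not overlap. Cdc20 shares 53 exonic bases with Elovl1 on the other strand, whose counts were 106% of its own.

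The 12 mitotic kinesins were all lower in sh-PHLPP1 after OxLDL, with a median log2 fold change of -2.79. Kif20a, the Mklp2 motor that carries the passenger complex to the midzone, had 2.30, 3.85 and 1.85 CPM in sh-PHLPP1 OxLDL libraries, 61.5, 63.7 and 66.0 CPM in sh-Luc OxLDL libraries, 95.9, 16.8 and 16.9 CPM in untreated sh-PHLPP1 libraries and 101, 110.3 and 99.8 CPM in untreated sh-Luc libraries. Its fold of 23.5 (-4.55 ± 0.65, edgeR adjusted p = 0.000130) was the largest of the 48. Kif11, the Eg5 motor that pushes the spindle poles apart, had 4.26, 6.22 and 4.52 CPM in sh-PHLPP1 OxLDL libraries, 59.5, 55.4 and 63.3 CPM in sh-Luc OxLDL libraries, 124, 27.0 and 20.5 CPM in untreated sh-PHLPP1 libraries and 106, 99 and 93.4 CPM in untreated sh-Luc libraries. Kif14, a motor of cytokinesis, had 1.42, 1.66 and 1.85 CPM in sh-PHLPP1 OxLDL libraries, 25.8, 23.4 and 27.9 CPM in sh-Luc OxLDL libraries, 31.0, 8.72 and 6.82 CPM in untreated sh-PHLPP1 libraries and 34.3, 37.7 and 31.7 CPM in untreated sh-Luc libraries. In all 3 motors the sh-PHLPP1 OxLDL libraries lay below untreated sh-PHLPP1 replicates 2 and 3, the next lowest. Kif2c, the MCAK depolymerase that frees wrongly attached microtubules, had 3.18, 4.38 and 3.70 CPM in sh-PHLPP1 OxLDL libraries, 52.6, 61.7 and 58.2 CPM in sh-Luc OxLDL libraries, 77.7, 12.9 and 14.5 CPM in untreated sh-PHLPP1 libraries and 87.6, 99.8 and 87.3 CPM in untreated sh-Luc libraries. Kif18a, which shortens kinetochore fibres and aligns chromosomes, had 6.42, 6.46 and 6.44 CPM in sh-PHLPP1 OxLDL libraries, 28.9, 26.2 and 26.2 CPM in sh-Luc OxLDL libraries, 36.8, 10.4 and 8.68 CPM in untreated sh-PHLPP1 libraries and 45.8, 53.5 and 41.3 CPM in untreated sh-Luc libraries. In Kif18a the 3 sh-PHLPP1 OxLDL values were nearly equal and the fold was the smallest of the kinesins (4.20, log2 -2.07 ± 0.44).

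Folds between the lines after OxLDL were 11.8 for Kif11 (-3.56 ± 0.57), 15.6 for Kif14 (-3.97 ± 0.52, edgeR adjusted p = 7.36e-05) and 15.2 for Kif2c (-3.93 ± 0.60), lower in sh-PHLPP1. Within the sh-PHLPP1 line OxLDL gave 15.9-fold lower Kif20a, 11.3-fold lower Kif11 and 9.38-fold lower Kif14, and without untreated replicate 1 these were 6.24, 4.76 and 4.77. The remaining kinesins ranged between 4.88-fold for Kif22, which works on chromosome arms, and 9.14-fold for Kif15, which backs up Eg5. Kif23, the centralspindlin motor, stood at 5.37-fold, Kif4, which binds condensin and the midzone, at 6.33-fold, Kifc1, the minus-end motor that bundles the poles, at 6.83-fold, Kif18b, which depolymerises microtubule plus ends, at 7.01-fold and Kif20b at 6.36-fold. Between the untreated lines, Kif2c had the largest fold of the 48 but was not called (-1.39 ± 0.51, edgeR adjusted p = 0.0593). Without sh-PHLPP1 replicate 1 it was -2.75 ± 0.13, but that library itself stood at 5.67 times the mean of replicates 2 and 3. With replicate 2 or 3 left out instead, no member was called. Exons of Kif20a overlap those of Cdc23 on the other strand over 1271 bases, and Cdc23 had 68.2% as many counts. Other overlaps with genes on the other strand follow, with shared exonic bases and the partner's counts as a percentage of the member's. They were Pdzd11 for Kif4 (832 bases, 125%), Mettl15 for Kif18a (11 bases, 35.4%) and Lcorl for Ncapg (944 bases, 35.1%). Also overlapping were Oip5 for Nusap1 (172 bases, 26.7%), Rccd1 for Prc1 (911 bases, 9.05%) and 9930104L06Rik for Cdca8 (232 bases, 8.08%). Reads over the shared bases could be affected if strand was not used. The near copy Kifc5b held 47.6% as many counts as Kifc1.

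Genes of the spindle midzone and cytokinesis were lower together. Anln, the anillin scaffold of the contractile ring, had 11.4, 12.0 and 10.3 CPM in sh-PHLPP1 OxLDL libraries, 94.6, 90.7 and 101 CPM in sh-Luc OxLDL libraries, 168, 52.6 and 45.3 CPM in untreated sh-PHLPP1 libraries and 141, 148 and 134 CPM in untreated sh-Luc libraries. It was 8.49-fold lower in sh-PHLPP1 after OxLDL (-3.08 ± 0.41, edgeR adjusted p = 7.88e-05). With OxLDL in the sh-PHLPP1 line it was 7.89-fold lower (-2.98 ± 0.41, edgeR adjusted p = 7.71e-05), or 4.38-fold without untreated replicate 1. Prc1, the bundler of midzone microtubules, was 8.29-fold lower in sh-PHLPP1 after OxLDL, Ect2, which activates RhoA at the cleavage furrow, 6.87-fold, and Nusap1, which bundles spindle microtubules near chromosomes, 5.05-fold. Tpx2, the activator of Aurora A on the spindle, was 3.67-fold lower (-1.87 ± 0.43) and stood at 44.0, 45.5 and 42.9 CPM in sh-PHLPP1 OxLDL libraries, against 183, 44.4 and 44.7 CPM in untreated sh-PHLPP1 libraries. Those OxLDL values coincide with untreated replicates 2 and 3, and OxLDL was not called in that line (-1.04 ± 0.42, edgeR adjusted p = 0.0523, and -0.02 ± 0.09 without untreated replicate 1).

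The condensin and chromosome group held the widely used proliferation markers Top2a and Mki67. Top2a, the topoisomerase II that untangles sister chromatids, had 28.9, 36.6 and 34.9 CPM in sh-PHLPP1 OxLDL libraries, 243, 222 and 244 CPM in sh-Luc OxLDL libraries, 481, 122 and 106 CPM in untreated sh-PHLPP1 libraries and 357, 393 and 342 CPM in untreated sh-Luc libraries. Mki67, the Ki-67 protein that coats mitotic chromosomes, had 22.4, 24.8 and 20.7 CPM in sh-PHLPP1 OxLDL libraries, 265, 125 and 194 CPM in sh-Luc OxLDL libraries, 142, 53.6 and 64.8 CPM in untreated sh-PHLPP1 libraries and 130.1, 245 and 117 CPM in untreated sh-Luc libraries. Ncapg, a condensin I subunit, had 15.3, 17.2 and 15.9 CPM in sh-PHLPP1 OxLDL libraries, 69.8, 65.0 and 71.6 CPM in sh-Luc OxLDL libraries, 91.1, 25.2 and 22.9 CPM in untreated sh-PHLPP1 libraries and 86.0, 84.1 and 77.6 CPM in untreated sh-Luc libraries. Mki67 was the most scattered of the 3 in sh-Luc cells: its OxLDL and untreated libraries overlapped there, with sh-Luc OxLDL replicate 1 and sh-Luc untreated replicate 2 above the others of their groups. After OxLDL, sh-PHLPP1 was lower by 7.06-fold for Top2a (-2.82 ± 0.46, edgeR adjusted p = 0.000334), 8.60-fold for Mki67 (-3.10 ± 0.41, edgeR adjusted p = 8.11e-05) and 4.26-fold for Ncapg (-2.09 ± 0.41, edgeR adjusted p = 0.00119). Within the sh-PHLPP1 line these folds with OxLDL were 7.06, 3.84 and 2.87, or 3.42, 2.63 and 1.5 without untreated replicate 1. Ncapd2 and Ncaph, the other condensin I subunits, were 9.30-fold and 3.44-fold lower between the lines after OxLDL.

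Smc2 and Smc4 are the 2 ATPases that both condensins share and that pair with each other. Smc2 was 6.06-fold lower in sh-PHLPP1 after OxLDL (-2.60 ± 0.32), whereas Smc4 was 1.67-fold lower (-0.74 ± 0.24, edgeR adjusted p = 0.0216). Smc4 had 66.8, 73.6 and 104 CPM in sh-PHLPP1 OxLDL libraries, 155, 116 and 138 CPM in sh-Luc OxLDL libraries, 163, 89.1 and 79.9 CPM in untreated sh-PHLPP1 libraries and 145, 144 and 139 CPM in untreated sh-Luc libraries. Its sh-PHLPP1 OxLDL replicate 3 lay above untreated sh-PHLPP1 replicates 2 and 3, and OxLDL in that line was not called (-0.44 ± 0.24, edgeR adjusted p = 0.141). Smc4 had the log2 fold change nearest 0 of the 48 genes in all 4 comparisons between groups.

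Genes of mitosis outside the 48 are given by lists. After OxLDL, sh-PHLPP1 was lower than sh-Luc in 32 of 35 other kinetochore and centromere genes (median log2 fold change -1.45), in 20 of 22 other spindle, centrosome and cytokinesis genes (-2.10), in 13 of 15 genes of cohesin, separase and condensin II (-1.08) and in 12 of 15 genes of entry into mitosis (-1.83), with 1 of those 15 higher, while 27.6% of all genes were called lower. Of the subunits and regulators of the anaphase promoting complex 7 of 17 were lower and 1 was higher, with a median of -0.17, against the same 27.6% of all genes lower. Its inhibitor Fbxo5 (Emi1) had 2.64, 2.25 and 2.52 CPM in sh-PHLPP1 OxLDL libraries, against 31.7, 28.1 and 32.8 CPM in sh-Luc OxLDL libraries (-3.64 ± 0.38, edgeR adjusted p = 1.43e-05). Wee1, the kinase that restrains Cdk1, was lower as well (-3.04 ± 0.37, edgeR adjusted p = 4.92e-05). Fzr1, the Cdh1 activator of the complex in G1, had 58.3, 55.6 and 45.7 CPM in sh-PHLPP1 OxLDL libraries, 82.8, 95.3 and 88.1 CPM in sh-Luc OxLDL libraries, 106, 48.6 and 58.5 CPM in untreated sh-PHLPP1 libraries and 107, 109 and 106 CPM in untreated sh-Luc libraries, and it was lower in sh-PHLPP1 after OxLDL (-0.74 ± 0.22, edgeR adjusted p = 0.0146).

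Of 16 regulators of mitotic transcription (subunits of MuvB, DREAM, NF-Y and E2F factors), 10 were lower and 2 higher in sh-PHLPP1 after OxLDL, with a median of -0.83, while 27.6% of all genes were called lower and 27.6% higher. Foxm1, the forkhead factor of G2 and M genes, had 7.77, 7.94 and 8.14 CPM in sh-PHLPP1 OxLDL libraries, 68.5, 65.8 and 70.3 CPM in sh-Luc OxLDL libraries, 106, 35.5 and 34.0 CPM in untreated sh-PHLPP1 libraries and 94.7, 95.3 and 96.3 CPM in untreated sh-Luc libraries. Mybl2, the B-Myb partner of MuvB, had 5.20, 5.63 and 4.74 CPM in sh-PHLPP1 OxLDL libraries, 60.1, 54.0 and 56.5 CPM in sh-Luc OxLDL libraries, 77.7, 21.6 and 23.0 CPM in untreated sh-PHLPP1 libraries and 86.1, 96.9 and 82.4 CPM in untreated sh-Luc libraries. Both followed the order of groups seen for Cdk1 and the cyclins, with untreated sh-PHLPP1 replicate 1 near sh-Luc. They were lower in sh-PHLPP1 after OxLDL (-3.10 ± 0.37, edgeR adjusted p = 3.91e-05 for Foxm1, and -3.45 ± 0.43, edgeR adjusted p = 5.07e-05 for Mybl2). Lin9, a core MuvB subunit, differed less (-0.80 ± 0.23, edgeR adjusted p = 0.0117). Among members with a promoter window, the median log2 fold change after OxLDL was -2.80 in the 32 with a CHR word and -2.08 in the 9 without, and it was -2.78 in the 29 with a CCAAT box and -2.50 in the 12 without. For the E2F site it was -2.63 in the 4 with and -2.67 in the 37 without. These medians carry no test.

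DNA replication genes, which act before mitosis, were lower in sh-PHLPP1 after OxLDL in 31 of 32 cases, with a median of -1.89, against 27.6% of all genes. Mcm6, a subunit of the replicative helicase, had 16.3, 18 and 15.1 CPM in sh-PHLPP1 OxLDL libraries, 209, 219 and 215 CPM in sh-Luc OxLDL libraries, 269, 94.1 and 89.2 CPM in untreated sh-PHLPP1 libraries and 315, 361 and 299 CPM in untreated sh-Luc libraries. Cdc6, which loads that helicase, had 5.00, 6.4 and 5.26 CPM in sh-PHLPP1 OxLDL libraries, 49.4, 41.5 and 49.4 CPM in sh-Luc OxLDL libraries, 38.2, 20.0 and 19.8 CPM in untreated sh-PHLPP1 libraries and 47.9, 70.0 and 45.6 CPM in untreated sh-Luc libraries. As with the mitosis genes, replicate 1 of untreated sh-PHLPP1 stood apart from replicates 2 and 3, and 13 of 32 replication genes were called lower between the untreated lines, where 12.2% of all genes were. Without that library it was 32 of 32, against 23.0% of all genes, and with only the 6 untreated libraries in the fit 0 of 32, against 2.44%. None of the 32 was called in sh-Luc with OxLDL by edgeR, with 0 at an unadjusted p under 0.05. All 32 log2 fold changes were negative there (median -0.31, against -0.004 over all genes tested). Without untreated sh-PHLPP1 replicate 1 the number called lower was 14 of 32, against 9.86% of all genes.

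Of 8 CDK inhibitors, 5 were tested, and after OxLDL 3 were lower in sh-PHLPP1 and 1 was higher. Over all genes, 27.6% were called lower and 27.6% higher. Cdkn1a, the p21 inhibitor, had 526, 511 and 490.1 CPM in sh-PHLPP1 OxLDL libraries, 425, 453 and 429.9 CPM in sh-Luc OxLDL libraries, 436, 656 and 684 CPM in untreated sh-PHLPP1 libraries and 558, 460.3 and 601 CPM in untreated sh-Luc libraries. It was not called between the lines after OxLDL (0.22 ± 0.16, edgeR adjusted p = 0.250) or untreated (0.13 ± 0.16, edgeR adjusted p = 0.549). Untreated sh-PHLPP1 replicates 2 and 3 had the highest Cdkn1a levels of the 12 libraries and replicate 1 the lowest of its group. The sh-PHLPP1 OxLDL libraries, where the mitosis genes as a whole were lowest, lay below those replicates 2 and 3 in Cdkn1a. A link between Cdkn1a and the mitosis genes was not tested. Cdkn1b, the p27 inhibitor, had 29.3, 26.8 and 28.5 CPM in sh-PHLPP1 OxLDL libraries, 21.6, 17.9 and 20.1 CPM in sh-Luc OxLDL libraries, 28.4, 27.1 and 25.9 CPM in untreated sh-PHLPP1 libraries and 20.6, 16.4 and 19.8 CPM in untreated sh-Luc libraries. It was higher in sh-PHLPP1 both after OxLDL (0.51 ± 0.12, edgeR adjusted p = 0.00347) and untreated (0.52 ± 0.12, edgeR adjusted p = 0.00902), and here the 3 untreated sh-PHLPP1 libraries lay together.

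Kinesins of cargo transport, which are motors without a main role in the spindle, are given beside the mitotic kinesins. Between the untreated lines 10 of 20 were higher in sh-PHLPP1 and none was lower, with a median of 0.29, while 14.9% of all genes were called higher and 12.2% lower. Kif5a, a motor of kinesin-1, had 23.7, 25.8 and 23.2 CPM in sh-PHLPP1 OxLDL libraries, 29.4, 28.2 and 25.8 CPM in sh-Luc OxLDL libraries, 31.2, 46.8 and 51.8 CPM in untreated sh-PHLPP1 libraries and 19.7, 19.2 and 18.8 CPM in untreated sh-Luc libraries. Kif3a, a motor of kinesin-2, had 67.2, 70.8 and 91.6 CPM in sh-PHLPP1 OxLDL libraries, 31.4, 25.7 and 28.8 CPM in sh-Luc OxLDL libraries, 29.9, 43.1 and 42.2 CPM in untreated sh-PHLPP1 libraries and 23.1, 18.3 and 21.3 CPM in untreated sh-Luc libraries. Kif5a and Kif3a were both higher in untreated sh-PHLPP1 than in untreated sh-Luc (1.17 ± 0.16, edgeR adjusted p = 0.000555 for Kif5a, and 0.88 ± 0.17, edgeR adjusted p = 0.00382 for Kif3a). With only the 6 untreated libraries in the fit, 3 of 20 were called higher, against 3.37% of all genes. After OxLDL, 3 of 20 were higher in sh-PHLPP1 and 5 were lower, with a median of -0.14, while 27.6% of all genes were called in each direction. With OxLDL in the sh-PHLPP1 line 10 of 20 were lower and 2 higher, with a median of -0.33, against 28.4% of all genes lower. The interaction was called in 6 of 20, all negative, with a median of -0.57, against 13.6% of all genes. Between the lines after OxLDL, Kif3a was higher in sh-PHLPP1 (1.42 ± 0.17, edgeR adjusted p = 3.61e-05). Kifc3, a minus-end motor, was lower in that same comparison (-1.82 ± 0.16, edgeR adjusted p = 3.81e-06).

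**Figure D4:**
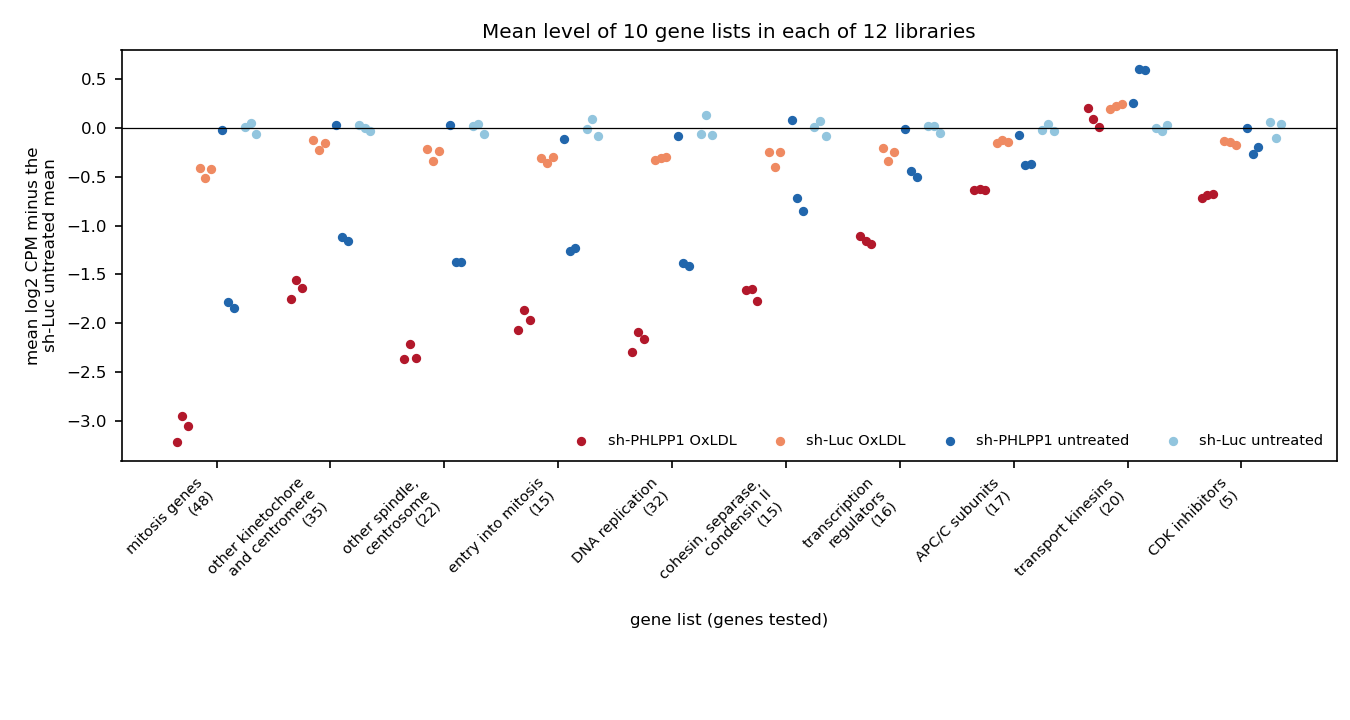
Mean log2 CPM of 10 gene lists in each of the 12 libraries, less the mean of the 3 untreated sh-Luc libraries, with the number of genes tested under each name. For the mitosis genes the sh-PHLPP1 OxLDL libraries lie lowest of the 10 lists, sh-Luc OxLDL libraries lie a little below 0, and untreated sh-PHLPP1 replicate 1 lies at 0 while replicates 2 and 3 lie well below it, a split that the transport kinesins show in the other direction.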

How the data were processed

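RNA sequencing reads of 12 libraries had been counted per gene by the authors, and the deposited table holds raw counts for 39179 rows. The build GRCm38 and the tools HTSeq, Trimmomatic, FastQC and DESeq2 are named in the submitters' processing notes. Aligner and strand setting are not given in the sources used here. Deposited comparison tables hold the authors' log2 fold changes and adjusted p-values, and are quoted only where named. Rows with a gene ID but no symbol (1632) held 0.397% to 0.505% of the counts of a library and were kept in the fit.

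The counts were fitted with edgeR 4.0.16 (R 4.3.3): filterByExpr left 13121 genes, TMM factors scaled the libraries, and 1 quasi-likelihood model with 4 group means gave 5 comparisons. P-values were adjusted over all genes by Benjamini-Hochberg, with calls made below 0.05. Each SE was the absolute log2 fold change divided by the root of F. The procedure was also run on simulated counts, with set changes in the sh-PHLPP1 OxLDL group only. No simulated library was set to depart from its group, so that run cannot speak to untreated sh-PHLPP1 replicate 1. Alternatives were a replicate block, DESeq2 1.42.0 as test and as size factors, library size alone and no filter. Others left out each library in turn, or untreated sh-PHLPP1 replicate 1 with untreated sh-Luc replicate 2, or used only the 6 libraries compared. For the gene lists beside the members, the fits that leave out libraries were chosen after seeing the data.

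Members and gene lists were chosen with earlier results of these data known. All members could be named. Values by library were given for Mki67, Top2a, Cdk1, Ccna2, Ccnb1, Ccnb2, Plk1, Aurka, Aurkb, Bub1b, Cdc20, Cenpe, Kif11, Kif20a and Ncapg and for the 3 smallest p-values and 3 largest changes in each comparison. Those of Cdca8, Spc24, Tpx2 and Smc4, the members not called for OxLDL in sh-PHLPP1, and of Ube2c and Pttg1 were added after their values were seen. Up to 3 genes with the smallest p-values in each other list could be named, besides Foxm1, Mybl2, Lin9, Fzr1, Cdkn1a, Cdkn1b and Phlpp1. Promoter windows came from RefSeq and exon overlaps from GENCODE, both on GRCm38.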

Additional observations from a re-analysis of the deposited data

Results flagged for a closer look

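The interaction of line and OxLDL asks whether the difference made by OxLDL was the same in both lines. It was called by edgeR's quasi-likelihood test in 26 of the 48 mitosis genes, all with a lower log2 fold change in sh-PHLPP1 than in sh-Luc. Over all genes tested, 13.6% had a called negative interaction. Among the genes described by library, the interaction on the log2 scale was -3.29 for Kif20a, -3.19 for Cenpf, -2.80 for Kif14, -2.76 for Kif11 and -2.76 for Ccna2. It was -2.51 for Plk1, -2.41 for Anln, -2.28 for Cdc20, -2.19 for Top2a, -2.19 for Mki67, -1.93 for Ccnb2, -1.92 for Aurkb and -1.78 for Aurka. Part of the size of these values came with 1 library: without untreated sh-PHLPP1 replicate 1 the interaction was -1.94 ± 0.23 for Kif20a, -2.26 ± 0.22 for Cenpf, -1.83 ± 0.21 for Kif14, -1.51 ± 0.21 for Kif11, -1.71 ± 0.14 for Ccna2, -1.40 ± 0.16 for Plk1, -1.57 ± 0.14 for Anln and -1.23 ± 0.16 for Cdc20 (log2 ± SE). For Top2a it was -1.16 ± 0.16, for Mki67 -1.65 ± 0.43, for Ccnb2 -1.37 ± 0.21, for Aurkb -1.0 ± 0.12 and for Aurka -0.99 ± 0.13. With 3 libraries in a group, no single library was tested as standing apart from its group.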

How the results depend on the processing

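The lower level of the mitosis genes in sh-PHLPP1 after OxLDL kept its direction and at least 46 of 48 calls under every alternative run, and OxLDL in sh-PHLPP1 had 42 to 48 calls, of which 42 to 44 were among the 44 genes called in the fit reported. Over those runs, 17.9% to 38.9% of all genes were called lower in the first comparison and 18.4% to 48.6% in the other. Counts that moved by over 1.5 times follow, with the share of all genes called lower in the same fit in brackets. For the untreated lines, 11 genes were called in the fit reported (12.2%), 19 with the replicate number as a block (11.8%) and 21 with DESeq2 (16.7%). There were 7 with library size alone (7.59%), 34 without a filter on low counts (7.92%) and 0 with only the 6 libraries compared (2.44%). With untreated sh-PHLPP1 replicate 1 and untreated sh-Luc replicate 2 both left out there were 48 (22.5%). The sh-Luc library was paired with it for its correlations of 0.983 and 0.984 with its group, where replicates 1 and 3 reached 0.994. Its mean level of the mitosis genes was like that of its group. Leaving out 1 library at a time gave 0 to 48 calls there (4.87% to 23.0%), 0 to 32 for OxLDL in sh-Luc (1.12% to 9.86%) and 12 to 37 for the interaction (9.11% to 19.4%). For OxLDL in sh-Luc, 33 genes were called with both libraries left out, Mki67 among them and higher (11.0%), and 36 with only the 6 libraries compared (11.0%). The causes of these shifts were not tested.

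Log2 fold changes changed sign in these cases when 1 library was left out. For OxLDL in sh-PHLPP1, Cdca8 was -0.60 and ran between -0.87 and 0.038, with 0.040 when both libraries were left out. For OxLDL in sh-Luc, Cenpe (0.07) ran between -0.10 and 0.20, Mki67 (0.25) between -0.033 and 0.66 and Smc4 (-0.07) between -0.16 and 0.037. For the interaction, Kif18a ran between -1.09 and 0.21, Spc24 between -0.55 and 0.22, Bub1b between -1.12 and 0.0069, Incenp between -0.95 and 0.028, Cdca8 between -0.60 and 0.31, Tpx2 between -1.03 and 0.32 and Ncaph between -1.30 and 0.0049. With both left out the interaction was 0.11 for Kif18a, 0.29 for Spc24, 0.0094 for Bub1b, 0.30 for Cdca8 and 0.26 for Tpx2.

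With library size alone as the scaling, the median of all genes was -0.46 against -0.03 with TMM for OxLDL in sh-PHLPP1 (1572 genes higher and 6381 lower, against 3441 and 3728), -0.25 against 0.01 between lines after OxLDL (2180 and 5107, against 3621 and 3619), 0.15 against 0.03 between untreated lines (2620 and 996, against 1950 and 1599) and -0.43 against -0.05 for the interaction (569 and 4214, against 1451 and 1780). The mitosis genes were then called lower in 48, 48, 7 and 39 cases. Correlations of deviations between same-numbered libraries ran between -0.278 and 0.277 without a common sign, and the numbers were not taken as pairs. Deviations in the untreated sh-PHLPP1 group carry the departure of its replicate 1, so they say little about pairing there. With the replicate number as a block, 43 genes were called for OxLDL in sh-PHLPP1 (27.5% of all genes were called lower) and 0 for OxLDL in sh-Luc (2.59%). There were 48 between lines after OxLDL (27%) and 23 for the interaction (12.1%). The lowest count of a member in a library was 21, and the effect of depth on the calls was not tested.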
